A study of Homo sapiens with 32 samples.

Results

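The chemokines CXCL1, CXCL2, CXCL3, CXCL5, CXCL8 and CXCL16 were chosen by name and make up 6 of the 60107 genes counted in these libraries. The data are 32 3′ mRNA-seq libraries of THP-1, a human monocytic leukemia cell line, in 8 groups of 4. Every line descends from THP-1 cells whose ATP-citrate lyase gene (ACLY), the enzyme that makes acetyl-CoA from citrate in the cytosol, was knocked out. KO cells lack ACLY, WT cells had wild-type ACLY put back, HA cells carry the catalytically inactive mutant H760A, and SA cells carry S455A, which cannot be phosphorylated at that serine. Each line was left unstimulated or received lipopolysaccharide (LPS), the bacterial cell wall component sensed by TLR4, at 100 ng/ml for 3 hours per the labels, while the paragraph of the methods on treatments gives 10 ng/ml. The ACLY forms were delivered in a lentiviral vector with an EF promoter and selected with puromycin. Whether KO cells were transduced as well is not given in the sources used here. The labels name 1 line per genotype, so other differences between the lines cannot be told apart from the genotype, and the labels do not say whether the 4 libraries of a group came from separate cultures. The methods speak of independent experiments in general, without naming these libraries. The p-values therefore measure the spread between these libraries, which may be technical.

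CXC chemokines are small secreted proteins that guide white blood cells along a gradient. CXCL1, CXCL2, CXCL3, CXCL5 and CXCL8 (interleukin-8) are ligands of the receptor CXCR2, which neutrophils carry, and CXCL8 also binds CXCR1. In monocytes and macrophages their genes are known as targets of NF-κB and AP-1 after TLR4 senses LPS, and their mRNAs are short-lived. CXCL16 differs from the shared label, since it is made as a membrane-bound protein, released by the sheddases ADAM10 and ADAM17, and known as the ligand of CXCR6 on T cells.

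In GENCODE 44 (GRCh38), 5 of the 6 genes lie in a single cluster on chromosome 4 that spans 358.678 kb. CXCL8 (ENSG00000169429, 4:73740519-73743716) and CXCL1 (ENSG00000163739, 4:73869393-73871308) are on the plus strand. CXCL5 (ENSG00000163735, 4:73995642-73998677), CXCL3 (ENSG00000163734, 4:74036589-74038807) and CXCL2 (ENSG00000081041, 4:74097040-74099196) are on the minus strand. CXCL16 (ENSG00000161921, 17:4733533-4739928) is on the minus strand of chromosome 17. All 6 are protein-coding genes.

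The promoters of the cluster share a sequence feature. RefSeq promoter windows (GRCh38.p14) of 300 bases, from 250 before to 50 after the start, were found for 5 of the 6 members and not for CXCL16. All 5 held GGAATTTCC, a form of the sequence bound by NF-κB, on either strand, against 0.461% of 35116 promoters. The CXCL8 window also held TGANTCA, the AP-1 sequence, which 7.71% of the promoters held, and the matches of the motifs did not overlap. Both motifs were chosen after these promoters had been seen, so their presence in the members is a description and not a test against the share of all promoters. The stretches that hold them are shown 5′ to 3′ on the strand of the gene, with the motifs in capitals, because they are what the chromosome 4 members have in common.
CXCL8: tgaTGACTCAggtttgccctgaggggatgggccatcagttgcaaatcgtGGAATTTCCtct
CXCL1: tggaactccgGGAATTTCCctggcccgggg
CXCL2: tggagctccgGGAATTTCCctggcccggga
CXCL3: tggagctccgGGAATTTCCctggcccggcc
CXCL5: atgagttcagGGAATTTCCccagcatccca
They lie at chr4:73740429-73740489 for CXCL8, chr4:73869305-73869334 for CXCL1, chr4:74099253-74099282 for CXCL2, chr4:74038748-74038777 for CXCL3 and chr4:73998748-73998777 for CXCL5. All but the CXCL3 stretch are in the flank before the gene model of GENCODE 44, and the CXCL3 stretch is inside it, since GENCODE places that start further upstream than RefSeq. GGAATTTCC began 91 bases before the RefSeq start in CXCL8, 78 in CXCL1, 77 in CXCL2, 78 in CXCL3 and 90 in CXCL5. A match is a description of the letters and not a measured binding site.

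Between 6504099 and 14750815 reads per library fell on genes (median 10247620). Levels are given as normalized counts, which are the recovered reads of a gene divided by a size factor computed jointly over all 32 libraries. ACLY itself was at 89.7 ± 17.7 normalized counts in unstimulated KO and 103 ± 11.5 in WT (SD, n = 4), with overlapping libraries, so the 3′ count does not separate these labels. All 8 monocytic markers had reads, while the summed T cell markers reached at most 2.38 and the erythroid markers at most 1.78 normalized counts. The summed B cell markers were at 6.01 to 86.3 and the epithelial markers at 0 to 36.4, the latter largely from CDH1 (147 reads in all). The neutrophil markers summed to 46.4 to 153, nearly all CXCR2, with 1 read of FCGR3B and 0 of CEACAM8. The SA library 1 after LPS stood apart with 13460 genes detected, against 14953 to 18552 as the lowest and highest among the other libraries.

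The chemokine mRNAs were close to the limit of detection. The 6 genes together had few of the 324545509 reads on genes. CXCL8 had 690 reads and was detected in all 32 libraries, CXCL1 had 204 reads in 30 libraries, CXCL3 had 112 in 19, CXCL16 had 99 in 19, CXCL2 had 71 in 17 and CXCL5 had 2 in 2. Testing required a mean deposited count of at least 10, which 12406 genes reached. CXCL8 was the only member to pass, at a mean of 20.5, so 1 of 6 members was tested and the other 5 are described by their reads. The paralogs have few reads in common near the 3′ end. In GENCODE 44 transcripts, of the 426 starts of a 75-nt read in the last 500 bases, CXCL1 and CXCL2 shared 3 (0.704%) and the other 4 members shared 0 with another gene.

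**Figure D1:**
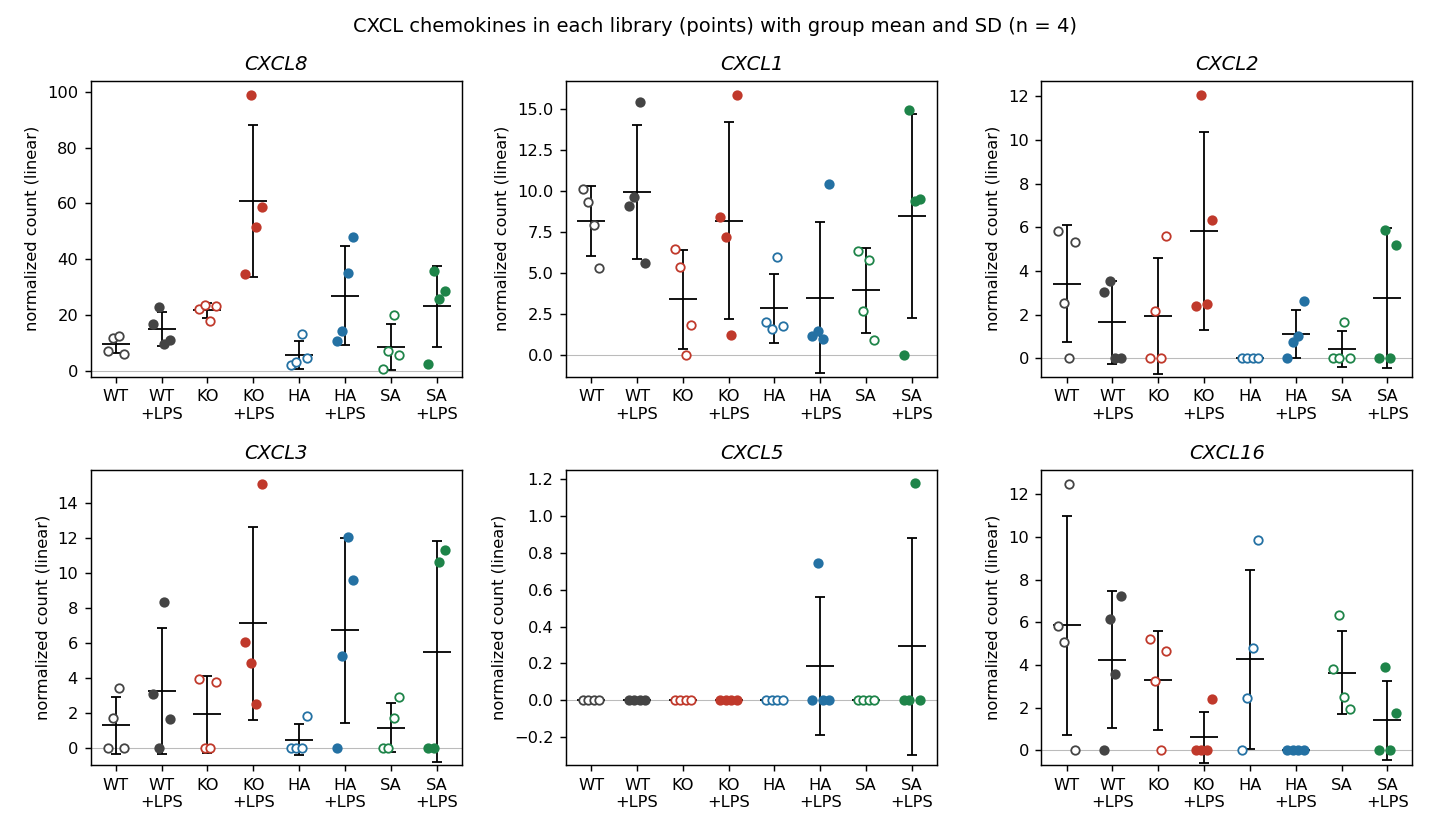
Normalized counts (linear axis) of the 6 chemokines in each of the 32 libraries, by group, with 1 point per library, open without LPS and filled after LPS, and bars for the group mean ± SD (n = 4). CXCL8 after LPS reached 34.9 to 98.9 in KO and at most 22.9 in WT, while the other 5 genes stayed at or under 15.9 in all libraries.

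The first question is how LPS changed the chemokines in each line. CXCL8, the main human neutrophil attractant, had a higher mean after LPS in all 4 lines. No comparison passed the limit, an adjusted p of 0.01 by limma. In WT cells, CXCL8 was at 7.26, 11.9, 12.5 and 6.21 normalized counts without LPS and at 16.7, 22.9, 9.51 and 11.3 after it. The groups overlapped, and the means were 9.46 ± 3.19 and 15.1 ± 6.02 (SD, n = 4). The log2 fold change, on the log2(normalized count + 1) scale, was 0.60 ± 0.68 (SE, 95% interval -0.79 to 1.98, limma adjusted p = 0.999986).

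In KO cells, the 4 unstimulated libraries had 22.1, 23.6, 17.8 and 23.3 normalized counts of CXCL8 and the 4 after LPS had 34.9, 98.9, 51.4 and 58.8. Every library after LPS was above every unstimulated one, and the mean went from 21.7 ± 2.68 to 61.0 ± 27.2, a ratio of 2.81. The log2 fold change was 1.36 (95% interval -0.03 to 2.74, limma adjusted p = 0.951). Groups separated in this direction for 1.95% of the genes tested in KO. In a fit of the KO groups alone, the SE was 0.34 (limma adjusted p = 0.266). With the replicate number as a blocking factor in that fit, it was 0.31 (limma adjusted p = 0.0541), which missed the limit. The block took the count of all genes called from 21 to 116, and the pairing was chosen from the same data.

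Over all libraries, HA cells had the largest LPS fold change of CXCL8 among the lines. Without SA library 1 after LPS, that of SA was larger (log2 2.22). Without HA library 4 after LPS, that of HA was 1.72. The responses of HA and SA were not tested against each other. Their libraries were at 2.06, 3.24, 13.2 and 4.47 without LPS and at 10.6, 14.2, 35.2 and 47.8 after it. The single highest unstimulated library overlapped the lowest stimulated one. The log2 fold change was 2.07 (95% interval 0.68 to 3.45, limma adjusted p = 0.359).

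SA cells ranged widely, from 0.634, 7.24, 20.01 and 5.74 without LPS to 2.35, 35.8, 25.9 and 28.6 after it. The groups overlapped because SA library 1 after LPS, with the fewest genes detected, held 2 CXCL8 reads. The log2 fold change was 1.42 (95% interval 0.04 to 2.81, limma adjusted p = 0.485). It was 2.22 without that library and 0.75 without SA library 1 unstimulated.

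In this LPS contrast, 0 of 1 tested members were called in each line by limma, and limma-voom on the recovered reads also called 0. In the fit over all 32 libraries, the tests of CXCL8 in HA and SA, 2 of the 4, had an unadjusted limma p below 0.05. So did 4.77% and 9.85% of all genes tested there. In fits of each line alone, the unadjusted limma p of CXCL8 was 0.162 in WT, 0.00266 in KO, 0.00964 in HA and 0.189 in SA. The limma adjusted p was 0.266 or more in these fits, where 14, 21, 33 and 7 of all genes were called. The background was low as well. Of all genes tested, 0.25% were called in WT, 0.572% in KO, 0.403% in HA and 0.492% in SA. The difference of the LPS responses from that of WT was 0.76 in KO, 1.47 in HA and 0.82 in SA (log2, SE 0.96 each), and the limma adjusted p was at least 0.997 for CXCL8 in all 3. The SA value was 0.15 without SA library 1 and 1.62 without SA library 1 after LPS. The background of that test was 0.00806% of genes for KO and 0% for HA and SA, where 142 and 457 genes had an unadjusted p below 0.05 and limma-voom called 0.

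The second question is whether loss or mutation of ACLY altered the level of the chemokines. CXCL8 was higher in KO than in WT cells both with and without LPS, with no overlap between the libraries. Unstimulated KO cells had at least 17.8 normalized counts and WT cells at most 12.5, a ratio of means of 2.29. The log2 difference was 1.16 (95% interval -0.22 to 2.55, limma adjusted p = 0.488). In this comparison 2.9% of genes were called, and 5.9% separated with higher values in KO. A fit of these groups alone gave a limma adjusted p of 0.113 for CXCL8, and 0.0795 with the replicate number as a blocking factor. Both missed the limit, and the block took the count of all genes called from 179 to 723.

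After LPS, the lowest KO library (34.9) was above the highest WT library (22.9) and the ratio of the means was 4.04. The log2 difference of CXCL8 was 1.92 ± 0.68 (SE, 95% interval 0.54 to 3.31, limma adjusted p = 0.0969). That was the smallest adjusted p of CXCL8 among the 19 comparisons in the fit over all 32 libraries. The background was 3.47% of genes called and 6.73% separated with higher values in KO. A fit of these 2 groups alone gave the same difference with an SE of 0.39 and missed the limit (limma adjusted p = 0.0183). Deviations of KO and WT libraries with the same replicate number correlated after LPS (r 0.199, 0.520, 0.723 and 0.179 for libraries 1 to 4). The highest r of each KO library with another number was 0.339, 0.429, -0.127 and 0.177. The pairing was thus chosen from the same data and was weak for libraries 1 and 4. With that number as a blocking factor in the fit of the 2 groups alone, the SE was 0.32 and the limit was passed (limma adjusted p = 0.000965). Of all 12406 genes, 430 were called over the 32 libraries, 300 in the 2 groups alone and 1333 (10.7%) in the 2 groups alone with the block. It is the single call of a member in any of the fits tried.

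The summed level of markers of the monocytic lineage, most of it from LYZ, differed between the same lines. The summed level of the 8 markers was 16598 to 30244 normalized counts in unstimulated KO libraries and 19137 to 36798 after LPS, against 6693 to 8439 and 5878 to 8414 in WT, and none of the 8 was at 0. The HA libraries were also above WT, at 14692 to 22087 without LPS and 14961 to 21858 after it. The single markers went both ways. In KO against WT, 2 of the 8 markers were called higher and 0 lower without LPS, and 1 higher and 1 lower after it. Of all genes, 2.9% and 3.47% were called there in either direction. In HA against WT, 1 was called higher and 0 lower without LPS, and 1 higher and 2 lower after it, CD14 among the lower. Of all genes, 2.52% and 2.02% were called there. LYZ, which encodes lysozyme and made up most of the sum with 376491 reads in all, was higher in KO by 1.89 without LPS and 2.29 after it (log2, limma adjusted p = 0.000425 and 2.8e-05). The part of this difference in the CXCL8 values was not tested. In bulk RNA, fewer cells that make an mRNA and less of it in each cell cannot be told apart.

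**Figure D2:**
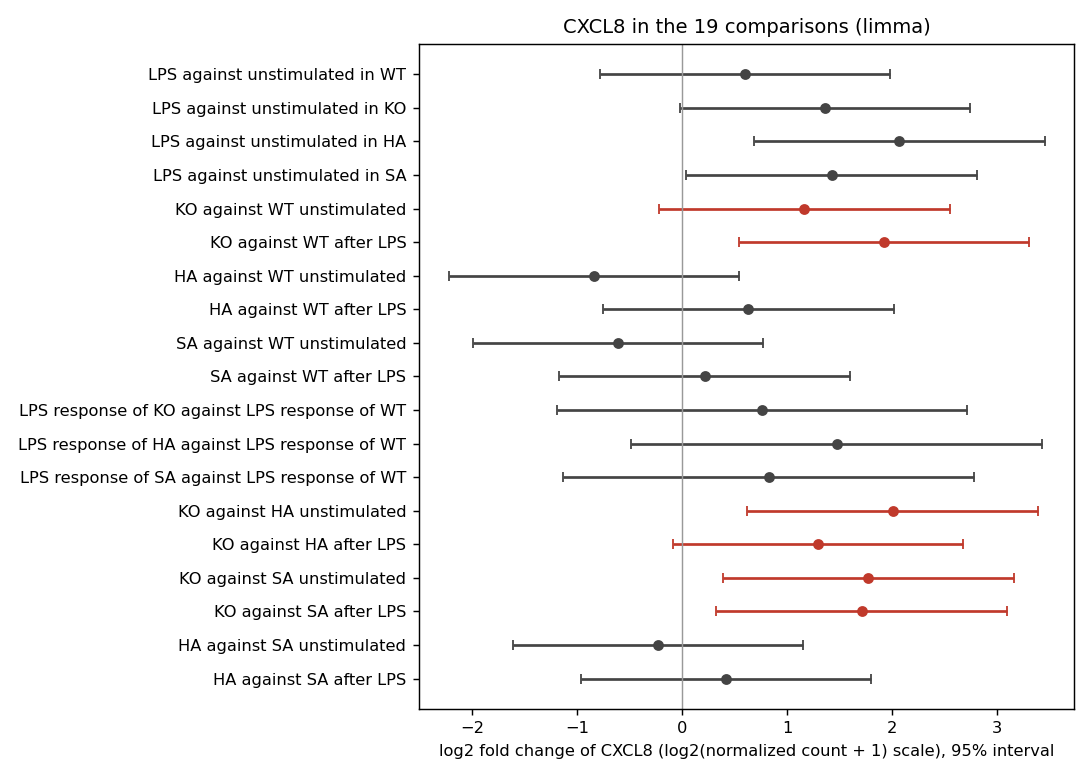
Log2 fold change of CXCL8 (x axis, log2(normalized count + 1) scale) with its 95% interval in the 19 comparisons, from limma over 32 libraries. Red marks KO against another line, and the intervals of KO against WT after LPS, KO against HA unstimulated and KO against SA in both states lie above 0, as do those of LPS in HA and SA.

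In the unstimulated state the mean of CXCL8 in the catalytically inactive HA line was below that of WT. HA cells had a mean of 5.73 ± 5.05 normalized counts, against 9.46 in WT (log2 difference -0.84, 95% interval -2.22 to 0.54, limma adjusted p = 0.439) with 2.52% of genes called. It ran from -1.28 without HA library 3 to -0.55 without HA library 1. Compared directly, all 4 KO libraries were above all 4 HA libraries, with a log2 difference of 2.00 (95% interval 0.62 to 3.39, limma adjusted p = 0.276). Of all genes, 0.226% were called in KO against HA and 2.73% separated with higher values in KO. After LPS, HA cells were at 26.9 ± 17.6, between WT and KO, and overlapped both. The log2 difference from WT was 0.63 (95% interval -0.76 to 2.01, limma adjusted p = 0.689) and from KO it was 1.29 in favour of KO (95% interval -0.09 to 2.68, limma adjusted p = 0.498). The former was 0.28 without HA library 4 after LPS and 0.97 without HA library 1 after LPS. The shares of genes called were 2.02% and 0.00806%.

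CXCL8 in SA cells overlapped WT in both states. The log2 difference was -0.61 without LPS (95% interval -1.99 to 0.77, limma adjusted p = 0.998) and 0.21 after it (95% interval -1.17 to 1.60, limma adjusted p = 0.951). These intervals reach a change of 1 on the log2 scale in both directions, so equal levels were not shown. No gene was called in SA against WT (0%), where 445 and 646 genes had an unadjusted p below 0.05 by limma and limma-voom called 0. KO exceeded SA by 1.77 without LPS and by 1.71 after it (log2, limma adjusted p = 0.15 and 0.148), with 2.86% and 2.93% of genes called. These differences were 1.10 without SA library 1 and 0.91 without SA library 1 after LPS. HA and SA differed by -0.23 and 0.42 (HA minus SA, log2, limma adjusted p = 0.892 and 0.805), with 1.5% and 2.02% called.

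Ordered by its mean, CXCL8 was highest in KO after LPS (61.0 normalized counts), followed by HA after LPS (26.9), SA after LPS (23.2), unstimulated KO (21.7), WT after LPS (15.1), WT (9.46), SA (8.41) and HA (5.73). Each neighbouring pair in this order had overlapping libraries. In the fit over all 32 libraries, 6 of the 19 tests of CXCL8 had an unadjusted limma p below 0.05 and 0 passed the limit. In those 6 comparisons, 4.77% to 19.1% of all genes tested had an unadjusted p below 0.05.

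In 6 of the 8 groups, all but WT with and without LPS, the library with the fewest genes detected also had the lowest CXCL8. This held in at least 6 groups for 12% of the genes tested. In WT the library with the fewest genes (16334) had the highest CXCL8, 12.5 normalized counts. In SA after LPS these were 13460 genes and 2.35 normalized counts, and in HA after LPS they were 14953 genes and 10.6 normalized counts. The part of this in the CXCL8 differences was not tested.

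**Figure D3:**
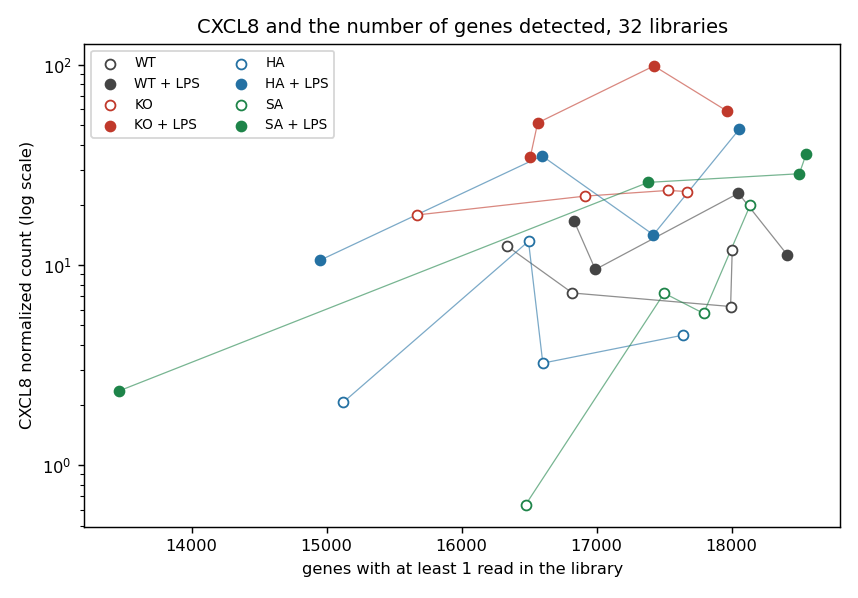
CXCL8 normalized count (log axis) against the number of genes with at least 1 read in each of the 32 libraries, with open points without LPS, filled points after LPS, and lines joining the libraries of a group in order of genes detected. The leftmost point, SA library 1 after LPS, has 13460 genes and a CXCL8 count of 2.35.

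Among the members below the testing limit, CXCL1, a CXCR2 ligand, was detected in all but 2 libraries. It was at 10.2, 9.34, 7.95 and 5.33 normalized counts in WT and at 9.11, 9.67, 15.5 and 5.63 in WT after LPS. Its mean in unstimulated KO cells was below that in WT, and the 4 libraries had 6.50, 5.37, 0 and 1.87. After LPS the KO libraries had 8.42, 7.24, 1.25 and 15.9 and overlapped WT. HA cells had the lowest means, 2.86 ± 2.09 without LPS and 3.53 ± 4.61 after it, on 11 and 16 reads. SA cells had 3.96 ± 2.57 and 8.48 ± 6.22, with 0 reads in SA library 1 after LPS.

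CXCL2 and CXCL3, close paralogs of CXCL1, had at most 13 reads in any unstimulated group. CXCL3 had 2 to 7 reads per unstimulated group of 4 libraries, and after LPS it had 11 reads in WT, 30 in KO, 30 in HA and 22 in SA. In HA cells the CXCL3 libraries went from 0, 0, 0 and 1.79 to 0, 5.23, 12.1 and 9.56 normalized counts. In KO cells they went from 3.90, 0, 0 and 3.73 to 6.01, 4.82, 2.51 and 15.1. The mean of CXCL3 was higher after LPS in all 4 lines, and its groups overlapped in each.

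CXCL2 was at 5.81, 2.55, 0 and 5.33 normalized counts in WT and at 3.04, 3.52, 0 and 0 in WT after LPS. The KO libraries had 0, 2.15, 0 and 5.60 and, after LPS, 2.41, 12.1, 2.51 and 6.35, so that reads were present in all 4 KO libraries only after LPS. Unstimulated HA cells had 0 reads of CXCL2 in 4 libraries, which allows up to 0.0721 RPM (reads scaled to library size), and 5 reads after LPS. SA cells had 2 and 15 reads. Floors and intervals here cover counting error only, since reads without molecular identifiers are not independent molecules.

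CXCL5, another CXCR2 ligand, was not detectable at this depth beyond 1 read in HA library 2 and 1 read in SA library 3, both after LPS. The 6 groups with 0 reads allow between 0.0633 and 0.0877 RPM.

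CXCL16 was the member whose mean was lower after LPS in all 4 lines. Its reads summed over 4 libraries were 21 and 19 in WT, 12 and 3 in KO, 18 and 0 in HA, and 18 and 8 in SA, in the order unstimulated and LPS. The HA libraries were at 0, 2.43, 4.78 and 9.84 normalized counts before LPS and at 0 in all 4 after it, where 0 reads allow up to 0.0691 RPM. In KO, 3 of the 4 libraries after LPS were at 0. The groups overlapped or touched at 0 in every line.

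With the limit on low counts removed, 27904 genes entered the fit and all 95 tests of the other 5 members were run by limma. None passed, against 0.43% of the tests of all genes, and the smallest adjusted p was 0.241, for the lower CXCL2 in HA against WT without LPS (log2 difference -1.81, 95% interval -3.32 to -0.31). An unadjusted p below 0.05 was found in 7 of the 95 tests of the 5 members and in 7.63% of the tests of all genes in that fit.

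Receptors and neighbours of the chemokines were examined from lists of the pathway. None of the other CXC ligands of the cluster, CXCL6, PPBP, PF4 and PF4V1, passed the limit on low counts (0 of 4 tested), and they had 33, 3, 13 and 0 reads in all. Of the receptors and sheddases, 3 of 6 were tested. CXCR2, the shared receptor, was at 111 ± 7.54 normalized counts in WT and 70.1 ± 14.0 in KO, and at 85.7 ± 12.6 and 53.1 ± 4.76 after LPS (SD, n = 4). The log2 difference of KO from WT after LPS was -0.67 (limma adjusted p = 0.0352), which missed the limit, though all KO libraries were below all WT libraries, a separation seen in 7.21% of genes. The CXCR1 receptor had 7 reads and CXCR6, the receptor of CXCL16, had 0. The sheddases ADAM10 and ADAM17 had group means of 374 to 665 and 840 to 1084 normalized counts. By limma 0 of 3 were called in any of the 19 comparisons, and 0 to 2 of 3 had an unadjusted p below 0.05, against 1.14% to 24.5% of all genes. With the values as deposited, 1 of 3 was called lower in unstimulated KO against HA and 1 of 3 in KO against SA after LPS. In the latter comparison that setting also called more of all genes than the main fit, with the counts given in the closing section. The share of all genes called with it in KO against HA is not given here.

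LPS sensing genes were measured in 15 of 16 cases, and CD14, the LPS co-receptor, was the single one called. It was at 319, 247, 244 and 250 normalized counts in unstimulated KO cells and at 58.1, 94.2, 96.5 and 88.8 in WT. CD14 was thus higher in KO by 1.66 ± 0.26 (log2, SE, limma adjusted p = 6.56e-05). After LPS it fell by 2.07 in KO and 1.72 in HA and by 1.43 in SA (log2, limma adjusted p = 5.97e-06, 0.000147 and 0.00169). In WT it went from 84.4 to 56.7 normalized counts and was not called. The SA call was lost without SA library 1 or SA library 2 (limma adjusted p = 0.0104 and 0.0139). KO and WT did not differ past the limit in CD14 after LPS (0.13, 95% interval -0.40 to 0.65). In the 2 groups alone with the replicate block, 2 genes of the list were called higher in KO, against 0 without it. Of all genes, 10.7% were called in that blocked fit. HA was below WT after LPS by a log2 difference of -1.37 (limma adjusted p = 0.00113). Unstimulated KO exceeded HA by 1.85 and SA by 1.30, the latter call being lost without KO library 1 or SA library 4 (limma adjusted p = 0.0103 and 0.0116). When only the groups compared were fitted, the CD14 calls for LPS in HA and SA, HA against WT after LPS and KO against HA were lost (limma adjusted p = 0.0973, 0.0919, 0.0481 and 0.0280).

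The transcription factors and inhibitors of the pathway, all 14 of them tested, rose with LPS in a few members, in the same libraries in which CXCL8 was not called. CXCL8 had fewer reads (690, against 4641 for ATF3 and 26008 for JUN). Its LPS fold change had a larger SE, 0.68 against 0.21 for ATF3 and 0.17 for JUN, so the calls do not compare the sizes of the responses. In WT, 2 of 14 rose and 12 of 14 had a positive fold change, with a median of 0.49 against -0.01 over all genes. ATF3, a stress-induced repressor of the CREB family, went from 52.9 ± 12.1 to 117 ± 36.5 normalized counts in WT (log2 1.10, limma adjusted p = 0.00748), and JUN, an AP-1 subunit, from 467 ± 83.3 to 880 ± 179 (log2 0.91, limma adjusted p = 0.00497). This count was 0 or 1 without any 1 of the 8 WT libraries. In KO, 3 rose, in HA 3 and in SA 2, and the medians were 1.02, 0.72 and 0.56. Of all genes, 0.25% were called in WT, 0.572% in KO, 0.403% in HA and 0.492% in SA. ATF3 went to 331 ± 35.0 in KO, 190 ± 15.5 in HA and 226 ± 34.4 in SA after LPS. When each line was fitted alone, 0 rose in WT, 1 in KO, 2 in HA and 0 in SA. The replicate block in that fit gave 7 in WT, 7 in KO, 7 in HA and 0 in SA, with 126, 116, 70 and 3 of all genes called. In HA and SA the numbers were not taken as pairs. In the fit of the line alone without the block, ATF3 and JUN in WT had limma adjusted p of 0.334 and 0.0969, and in SA 0.0136 and 0.139.

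Between lines after LPS, 4 of the 14 factors were called higher in KO than in WT, where 3.47% of all genes were called in either direction. A positive difference was found in 14 of 14, with a median of 0.75 against -0.01 over all genes. ATF3 differed by 1.54 ± 0.21, EGR1, an immediate-early factor, by 1.41 ± 0.32 and CEBPD, a C/EBP factor, by 1.04 ± 0.17 (log2, SE, limma adjusted p = 1.13e-05, 0.00531 and 0.000105). The EGR1 call was lost without WT library 1, 2 or 4 or KO library 1, 2 or 3 after LPS (limma adjusted p of 0.0116 to 0.0395). The count was 2 without WT library 1 or 4 after LPS or without KO library 1 or 2 after LPS. It was 3 in a fit of the 2 groups alone, where EGR1 was lost (limma adjusted p = 0.0298). With the replicate block in that fit it was 9, where 10.7% of all genes were called. In HA against WT after LPS, 0 of 14 were called by limma, against 2.02% of all genes. An unadjusted limma p below 0.05 was found for 6, against 16.7% of all genes, and 12 of 14 had a positive difference. Limma-voom also called 0, and the values as deposited gave 2. Without LPS, ATF3 was the 1 factor of 14 called higher in KO than in WT (log2 1.14, limma adjusted p = 0.00078), where 2.9% of all genes were called. ATF3 was also higher in unstimulated KO than in HA and SA, by 1.13 and 1.00, calls that were lost without any 1 of the libraries except HA 1 in the former, and without KO 2 or 3 or SA 1 or 4 in the latter. CEBPD was higher in KO than in SA after LPS by 1.05 (log2, limma adjusted p = 0.000151). In fits of the groups compared alone, the ATF3 calls of unstimulated KO against WT, HA and SA and the CEBPD call were lost (limma adjusted p = 0.0271, 0.238, 0.0463 and 0.133).

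**Figure D4:**
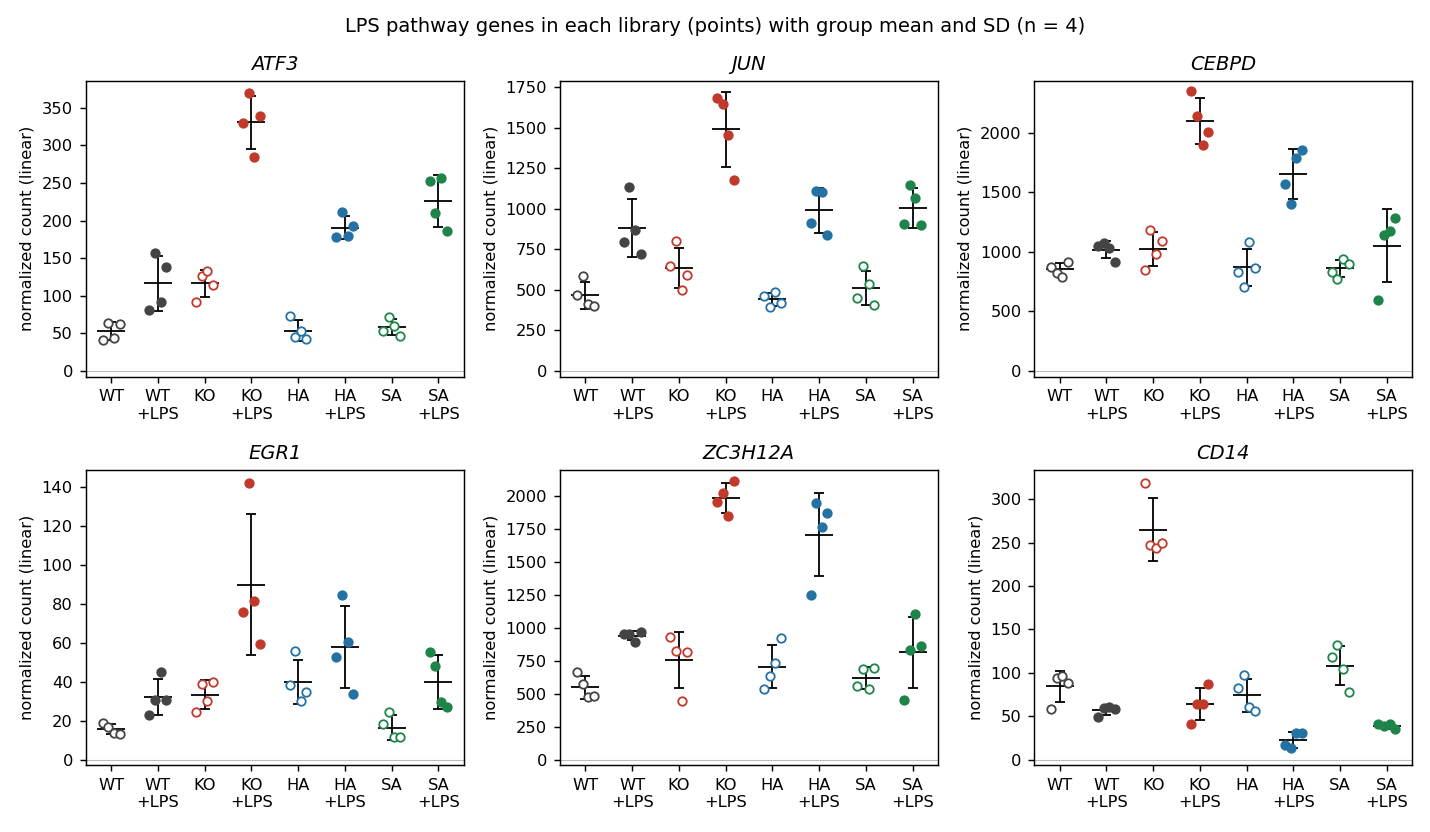
Normalized counts (linear axis) of ATF3, JUN, CEBPD, EGR1, ZC3H12A and CD14 in each of the 32 libraries by group, open without LPS and filled after LPS, with the group mean ± SD (n = 4). ATF3 after LPS averages 331 in KO and 117 in WT, and CD14 averages 265 in unstimulated KO and 64.0 in KO after LPS.

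Regulators of mRNA decay, which act on short-lived chemokine mRNAs, were all tested (7 of 7), and ZC3H12A, an RNase that cleaves inflammatory mRNAs and is itself induced by LPS, was the member called. It rose with LPS by 1.45 ± 0.22 in KO and 1.28 ± 0.22 in HA (log2, SE, limma adjusted p = 0.000154 and 0.000973). After LPS it was higher in KO than in WT by 1.08 (limma adjusted p = 0.00169), at 1990 ± 114 against 942 ± 35.4 normalized counts. It was also higher than in SA after LPS, by 1.36 in KO and by 1.12 in HA (log2), and the call in HA was lost without HA library 2 after LPS (limma adjusted p = 0.0113). Of all genes, 0.572% and 0.403% were called for LPS in KO and HA, and 3.47% in KO against WT after LPS. Against SA after LPS the shares were 2.93% for KO and 2.02% for HA. In fits of the groups compared alone, the call of KO against WT after LPS held, and those of ZC3H12A for LPS in KO and HA and for KO and HA against SA were lost (limma adjusted p = 0.0265, 0.0144, 0.0683 and 0.161). For LPS in WT and in KO, the fit of the line alone called 0 genes of this list, and 1 higher and 1 lower in each with the replicate block. The block took the count of all genes called from 14 to 126 in WT and from 21 to 116 in KO. In HA it took the count of this list called higher from 0 to 1, and that of all genes from 33 to 70.

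Over the 32 libraries, the tested genes whose log2 values followed CXCL8 most closely were AIMP1 (Pearson r = 0.833), AC006449.6 (0.832) and PTX3 (0.822), of 12405 genes ranked. These points share their lines, LPS state and number of genes detected, so the values are a description of these libraries.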

How the data were processed

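Libraries were made with the QuantSeq 3′ kit, sequenced as 75-nt single reads, adapter-trimmed (Bbduk), aligned (STAR, GRCh38) and assigned to genes (HTSeq-count). Per the labels' processing notes, bcl2fastq and DESeq2 were used, without versions. The annotation release is not given in the sources used here. The authors deposited other values than raw counts, namely normalized counts with decimal commas in 1 table for each group, scaled separately for each line. The 92 spike-in rows of the 60199 in a table (1 read in all libraries) were left out. The reads were recovered, since 100% of values above 0 were whole multiples of 1 read within 0.05, and a median-of-ratios factor from a joint calculation over all 32 libraries scaled them. Relative to WT, the deposited scale differs from the joint one by -0.10 in KO, 0.15 in HA and 0.26 in SA (log2).

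Groups and replicate numbers came from the sample titles. The filter was a mean deposited count of 10 or more (12406 genes). Log2(normalized count + 1) entered a two-sided limma fit (version 3.58.1, R 4.3.3) with 1 mean per group and a variance trend, in 19 comparisons. Within each, Benjamini-Hochberg adjustment covered the 12406 genes, and the limit was 0.01. Scripts were tested on simulated data. The members, the lists and the rule for named genes (all 6 members, and of each list up to 3 called genes with the largest change per comparison) were chosen with earlier results of these data known. LYZ and CXCR2 were named after their values were seen. Deviations of same-numbered libraries from their group means correlated above 0.1 in every pair only among the WT and KO groups (lowest r 0.334 for KO with WT, 0.179 for both after LPS, 0.262 within WT and 0.124 within KO). The main fit used no replicate number in any of the 19 comparisons. In reading the blocked fits, which were alternatives, the numbers were taken as pairs among the WT and KO groups and not elsewhere. This choice came from the same data, and for some libraries r was higher with another number. For library 1 it was 0.199 against 0.339 for KO with WT after LPS, and 0.124 against 0.325 within KO. Intervals are 95%, and the upper limit for 0 reads is 3 reads of the group's total.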

Additional observations from a re-analysis of the deposited data

Results flagged for a closer look

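Within groups of 4 libraries, 8 of the 96 groups and genes examined held a single library far from the other 3 by Dixon's test, where chance gives about 1 in 20. In the 5 of CXCL2, CXCL3, CXCL5 and CXCL16 the other 3 libraries had 0 reads, so any read at all meets the rule and that rate does not apply. For CXCL1 these were HA library 3 at 5.98 normalized counts (5 reads) and HA library 4 after LPS at 10.4 (12 reads). For CXCL2 it was SA library 3 at 1.67 (2 reads) and for CXCL3 HA library 4 at 1.79 (2 reads). CXCL5 had HA library 2 after LPS at 0.746 and SA library 3 after LPS at 1.18, with 1 read each. CXCL16 had KO library 4 after LPS at 2.38 (3 reads). CD14 had KO library 1 at 319 normalized counts, with the other 3 KO libraries at 244 to 250. No difference of LPS responses between the lines passed the limit for a member.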

How the results depend on the processing

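The count of tested members called was 0 in all 19 comparisons and stayed at 0 under 346 of the 347 alternatives computed for these counts. The exception was the replicate block in KO against WT after LPS, where 1 member, CXCL8, was called. In each comparison 1 of the alternatives, the mean of at least 50, tests no member, so its count of 0 was fixed in advance. Where the numbers were taken as pairs, the block changed no other call of a member. The blocked fits use the groups compared alone. From that fit without the block to that with it, the count of all genes called went from 300 to 1333 in KO against WT after LPS, from 179 to 723 without LPS, from 14 to 126 for LPS in WT and from 21 to 116 in KO, against 430, 360, 31 and 71 over all libraries. Where the numbers were not taken as pairs, the count went both ways. It fell from 196 and 133 to 8 and 7 in HA against WT, without and with LPS. It rose from 33 to 70 for LPS in HA and from 92 to 231 in HA against SA without LPS. Values as deposited gave 1134 and 1192 genes in KO against SA in place of 355 and 363. That alternative differs from the main fit only in the scaling, which is separate for each line in the deposited values. The part of the scaling in single calls was not tested. Leaving out 1 library moved the CXCL8 log2 difference between -0.90 and 0.33 for HA against SA and between -0.39 and 0.77 after LPS, and between -1.17 and 0.062 for SA against WT and -0.14 and 1.01 after LPS. Over all libraries these differences were -0.23 and 0.42 for HA against SA and -0.61 and 0.21 for SA against WT. Their direction turned without HA library 1 or SA library 1 or 3, or SA library 1, 2 or 4 after LPS. KO against WT after LPS ran from 1.66 to 2.15 with limma adjusted p from 0.101 to 0.255. A mean of at least 50 leaves CXCL8 untested. Tests with edgeR and DESeq2 had been planned and were not run, limma-voom on recovered reads was added after the data were seen, and TMM factors were computed with separate code. Depth sets the limit for the other 5 members.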
